A study of Macaca fascicularis with 32 samples.

Results

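PENK, PDYN and TAC1 were followed in single nuclei of the macaque caudate nucleus (CN), putamen (PUT) and substantia nigra (SN). They were found by their symbols among the 22316 genes of the count tables, each at 1 gene: ENSMFAG00000031729 (PENK), ENSMFAG00000043721 (PDYN) and ENSMFAG00000000287 (TAC1). All 3 encode precursor proteins that are cut into small neuropeptides. PENK yields the enkephalins, which act mainly on mu and delta opioid receptors, PDYN yields the dynorphins, which act mainly on the kappa opioid receptor, and TAC1 yields substance P and neurokinin A, which act on tachykinin receptors. As background, most striatal neurons are spiny projection neurons (SPNs). Indirect-pathway SPNs, which carry the D2 dopamine receptor and an adenosine receptor (ADORA2A), are known for PENK, and direct-pathway SPNs, which carry the D1 receptor and project to the nigra and inner pallidum, are known for PDYN and TAC1. Dopamine loss in the striatum is known from work in rodents and primates to raise PENK and lower TAC1 transcripts.

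The study profiled cynomolgus macaques (Macaca fascicularis) labelled PD or CT. Per the series title, the PD animals carry an adeno-associated virus for α-synuclein and also received poly(ADP-ribose), the polymer made by PARP enzymes. The labels give no age, sex, injected site or interval, and do not say what the CT animals received. Nuclei were run on the 10x Chromium 3′ platform (v3), in which each captured transcript counts once by its molecular identifier (UMI). The labels list 4 samples of PD and 8 of CT for CN, 4 of PD and 8 of CT for PUT, and 4 of PD and 4 of CT for SN. Each region and group came as a single matrix with no map from nuclei to animals, so each was 1 library and no test between groups was possible. Intervals below are 95% intervals for counting error only and hold nothing of the spread between animals. PCR copies are removed by the identifiers, but nuclei of 1 animal are not independent.

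The 6 libraries held between 7702 and 10389 barcodes and between 18692617 and 36723856 UMIs. After filtering, 52693 nuclei remained, with a median of 2667 UMIs in CN PD, 3008.5 in CN CT, 1964.5 in PUT PD, 2020 in PUT CT, 1170 in SN PD and 1243.5 in SN CT. Any pair of libraries shared at most 38 barcodes. Clusters were named from markers that did not include the 3 genes, and names end in "-like" because they rest on markers alone. Direct SPN-like nuclei numbered 1960 in CN PD, 2427 in CN CT, 1347 in PUT PD and 1578 in PUT CT, and indirect SPN-like nuclei numbered 1849, 2262, 1646 and 1987 in the same libraries. Eccentric SPN-like nuclei, a rarer SPN type marked by RXFP1, CASZ1 and TSHZ1, numbered 197, 207, 108 and 117. DRD2 stood at 401.3 CPM (the gene's UMIs scaled by all UMIs of the class) in indirect SPN-like nuclei of CN PD, 366.7 in CN CT, 585.3 in PUT PD and 535.3 in PUT CT, against 14.7 to 22.8 CPM in direct SPN-like nuclei. The defining receptor of the direct pathway was nearly unmeasured: DRD1 had 2.7 to 4.0 CPM in direct SPN-like and 0.1 to 0.4 CPM in indirect SPN-like nuclei. The direct class rested on the sum of 7 markers and on a low sum of indirect-pathway markers. Of the first sum EBF1, a transcription factor, gave 96.5 of 237.7 CPM in CN PD and 159.9 of 299.3 in CN CT. It gave 183.4 of 338.2 CPM in PUT PD and 203.4 of 349.3 in PUT CT. In indirect SPN-like nuclei EBF1 stood at 4.33 to 8.34 CPM. Of the 20 SPN-like clusters, 18 came mostly (over 50%) from 1 library.

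Glia are not known to make these peptides in quantity in the adult striatum. Their level was taken as the free RNA level of each library, on the assumption that it comes from transcripts loose in the suspension. Empty droplets were not examined, so this source was not tested. Oligodendrocyte-like nuclei held 0.101 PENK UMIs per nucleus in CN PD, 0.130 in CN CT, 0.0503 in PUT PD and 0.151 in PUT CT. The same nuclei held 0.0766, 0.1004, 0.0716 and 0.157 TAC1 UMIs per nucleus, and 0.0145, 0.0124, 0.000367 and 0.00347 PDYN UMIs. Their PENK and TAC1 levels were lower in the PD library than in the CT library of both regions, and PUT PD was the lowest for PENK. Astrocyte-like nuclei held 0.0857 PENK UMIs per nucleus in CN PD, 0.116 in CN CT, 0.0536 in PUT PD and 0.175 in PUT CT, and microglia-like nuclei held 0.0983, 0.127, 0.0639 and 0.177. Oligodendrocyte precursor-like nuclei held 0.158, 0.132, 0.0566 and 0.141, in CN PD 1.56-fold the oligodendrocyte-like level and close to direct SPN-like nuclei.

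PENK was highest in indirect SPN-like nuclei of all 4 striatal libraries among classes of at least 50 nuclei, when counted per nucleus. It had 0.650 UMIs per nucleus in CN PD (1201 UMIs, 109.3 CPM), 0.510 in CN CT (1154 UMIs, 115.9 CPM), 0.293 in PUT PD (482 UMIs, 63.6 CPM) and 0.501 in PUT CT (996 UMIs, 100.4 CPM). PUT PD stood below the other 3 libraries. Set against oligodendrocyte-like nuclei, these levels per nucleus were 6.43-fold, 3.94-fold, 5.82-fold and 3.32-fold higher. In CPM the order differed. Oligodendrocyte-like nuclei held 83.1 CPM in CN PD, 141.9 in CN CT, 37.8 in PUT PD and 130.6 in PUT CT, above indirect SPN-like nuclei in both CT libraries. Microglia-like nuclei held 91.45, 146.4, 76.5 and 200.8 CPM, below indirect SPN-like nuclei in CN PD alone. The free RNA level would amount to 15.6% of the PENK of indirect SPN-like nuclei in CN PD, 25.4% in CN CT, 17.2% in PUT PD and 30.1% in PUT CT.

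In direct SPN-like nuclei PENK came close to that background. It had 0.176 UMIs per nucleus in CN PD, 0.189 in CN CT, 0.0787 in PUT PD and 0.195 in PUT CT, which was 1.74-fold, 1.46-fold, 1.56-fold and 1.29-fold the oligodendrocyte-like level. In CPM, indirect over direct SPN-like nuclei gave a ratio of 3.65 (3.23 to 4.12) in CN PD, 2.71 (2.43 to 3.02) in CN CT, 3.71 (3.00 to 4.62) in PUT PD and 2.63 (2.31 to 2.99) in PUT CT. These ratios include the free RNA of both classes. Eccentric SPN-like nuclei held PENK at 1.26-fold, 1.01-fold, 2.39-fold and 1.30-fold the oligodendrocyte-like level, on 13 to 27 UMIs a library.

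PDYN gave the fewest UMIs and was mainly a transcript of direct SPN-like nuclei. It had 0.121 UMIs per nucleus in CN PD (238 UMIs, 20.7 CPM) and 0.0968 in CN CT (235 UMIs, 22.0 CPM), but 0.0186 in PUT PD (25 UMIs, 4.04 CPM) and 0.0120 in PUT CT (19 UMIs, 2.37 CPM). Both CN libraries lay far above both PUT libraries. The level was 8.39-fold the oligodendrocyte-like level in CN PD, 7.80-fold in CN CT and 3.47-fold in PUT CT, while in PUT PD only 1 UMI was seen in 2724 oligodendrocyte-like nuclei, so no fold is read there. Direct over indirect SPN-like nuclei gave a ratio of 7.12 (4.91 to 10.7) in CN PD, 5.09 (3.66 to 7.22) in CN CT, 6.13 (2.30 to 20.5) in PUT PD and 5.87 (1.95 to 23.7) in PUT CT. Indirect SPN-like nuclei held PDYN at 1.196-fold the oligodendrocyte-like level in CN PD and 1.53-fold in CN CT. The free RNA level would amount to 11.9% of the PDYN of direct SPN-like nuclei in CN PD, 12.8% in CN CT and 28.8% in PUT CT. Direct SPN-like nuclei held 65.2% of all PDYN UMIs of the kept nuclei in CN PD, 68.1% in CN CT, 73.5% in PUT PD and 42.2% in PUT CT.

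TAC1 was high in direct SPN-like nuclei and higher still in eccentric SPN-like nuclei. Direct SPN-like nuclei had 0.660 UMIs per nucleus in CN PD (1293 UMIs, 112.7 CPM), 0.642 in CN CT (1558 UMIs, 145.7 CPM), 0.630 in PUT PD (848 UMIs, 137.1 CPM) and 0.832 in PUT CT (1313 UMIs, 163.5 CPM). These were 8.61-fold, 6.40-fold, 8.79-fold and 5.32-fold the oligodendrocyte-like level. In eccentric SPN-like nuclei TAC1 reached 152.0 CPM in CN PD (157 UMIs), 279.7 in CN CT (222 UMIs), 199.8 in PUT PD (88 UMIs) and 297.1 in PUT CT (165 UMIs), or 10.4-fold, 10.7-fold, 11.4-fold and 9.01-fold the oligodendrocyte-like level per nucleus. Both CT libraries lay above both PD libraries in this class. Eccentric over direct SPN-like nuclei gave a ratio of 1.35 (1.14 to 1.59) in CN PD, 1.92 (1.66 to 2.21) in CN CT, 1.46 (1.16 to 1.82) in PUT PD and 1.82 (1.54 to 2.14) in PUT CT. Direct over indirect SPN-like nuclei gave 5.12 (4.46 to 5.89) in CN PD, 3.78 (3.38 to 4.23) in CN CT, 4.37 (3.78 to 5.06) in PUT PD and 3.21 (2.90 to 3.57) in PUT CT. TAC1 in indirect SPN-like nuclei was 1.71-fold, 1.69-fold, 2.02-fold and 1.62-fold the oligodendrocyte-like level.

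**Figure D1:**
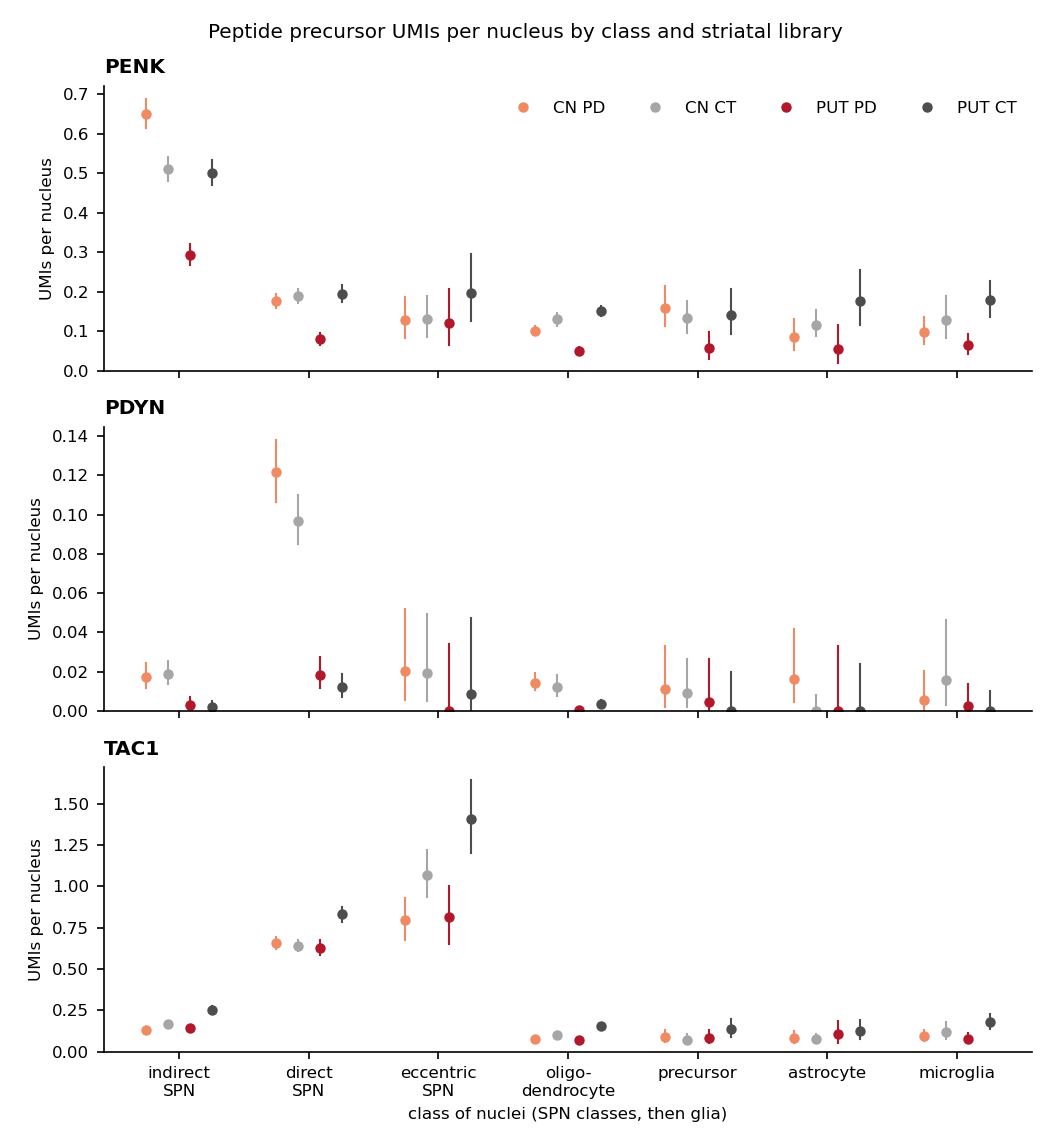
PENK, PDYN and TAC1 UMIs per nucleus (y axis) in SPN classes and glial classes (x axis) of the 4 striatal libraries; points are class sums divided by nuclei and bars are exact Poisson 95% intervals for counting error. PENK is high in indirect SPN-like nuclei (0.293 to 0.650), PDYN in direct SPN-like nuclei of CN (0.121 in PD and 0.0968 in CT), and TAC1 in eccentric and direct SPN-like nuclei.

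The mix of PENK and TAC1 UMIs differed between the SPN classes and glia. PENK made up 83.2% (81.2 to 85.1) of PENK plus TAC1 UMIs in indirect SPN-like nuclei of CN PD, 75.0% (72.8 to 77.2) in CN CT, 66.9% (63.4 to 70.4) in PUT PD and 66.4% (63.9 to 68.7) in PUT CT. In direct SPN-like nuclei the share was 21.0%, 22.7%, 11.1% and 18.95%, and in eccentric SPN-like nuclei 13.7%, 10.8%, 12.9% and 12.2%. Oligodendrocyte-like nuclei lay between them, at 56.9% (52.8 to 60.9) in CN PD, 56.3% (51.5 to 61.1) in CN CT, 41.3% (35.9 to 46.8) in PUT PD and 49.1% (46.3 to 51.9) in PUT CT. Microglia-like nuclei gave 50.7% in CN PD, 51.1% in CN CT and 44.8% in PUT PD, each with an interval that overlaps that of oligodendrocyte-like nuclei of the same library. Interneurons did not stand apart in this way: PTHLH and KIT interneuron-like nuclei of CN held 15 PENK and 9 TAC1 UMIs in PD, and 33 and 22 in CT. The mix is set beside the same mix in other classes and does not compare the abundance of the 2 transcripts.

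**Figure D2:**
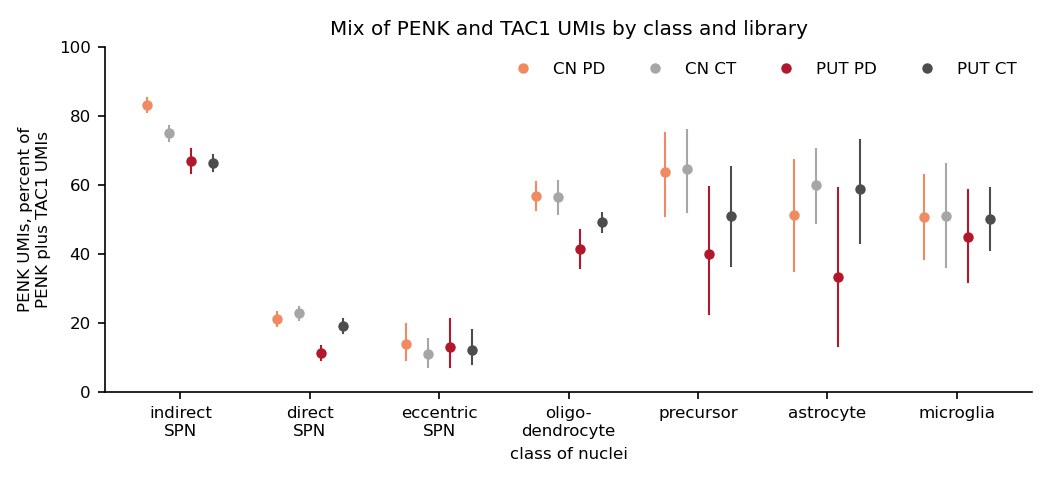
PENK as a percentage of PENK plus TAC1 UMIs (y axis) by class (x axis) in the 4 striatal libraries, with exact Clopper-Pearson 95% intervals. Indirect SPN-like nuclei lie at 66.4% to 83.2%, direct SPN-like nuclei at 11.1% to 22.7%, and the glial classes in between.

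Interneurons held little of any of the 3. In PTHLH and KIT interneuron-like nuclei of CN, PENK was 1.13-fold the oligodendrocyte-like level per nucleus in PD (131 nuclei) and 1.44-fold in CT (177 nuclei), and TAC1 was 0.897-fold and 1.24-fold. In TAC3 and KIT interneuron-like nuclei of CN, a primate interneuron type, PENK was 0.880-fold in PD (135 nuclei) and 1.17-fold in CT (192 nuclei). Their TAC1 was 1.16-fold in PD and 0.623-fold in CT. These levels are read as background. NPY, SST and NOS1 interneuron-like nuclei held PENK at 2.04-fold the oligodendrocyte-like level in CN PD, 1.51-fold in CN CT, 3.06-fold in PUT PD and 0.895-fold in PUT CT, on 4 to 10 UMIs a library. Cholinergic interneuron-like nuclei, 12 to 27 a library, held at most 5 UMIs of any of the 3 genes.

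Most direct and indirect SPN-like nuclei showed no UMI of any of the 3 genes once each was thinned to 3000 UMIs. In eccentric SPN-like nuclei the share with none was 58.2% in CN PD, 51.0% in CN CT, 50.6% in PUT PD and 49.5% in PUT CT. After thinning, PENK was seen in 26.9% of indirect SPN-like nuclei of CN PD (24.8 to 29.0), 27.3% in CN CT (25.3 to 29.4), 15.9% in PUT PD (13.96 to 17.9) and 25.4% in PUT CT (23.4 to 27.5). TAC1 was seen in 28.0% of direct SPN-like nuclei of CN PD, 33.4% in CN CT, 33.2% in PUT PD and 36.8% in PUT CT. PDYN was seen in 5.65% of direct SPN-like nuclei of CN PD, 5.98% in CN CT, 1.26% in PUT PD and 0.644% in PUT CT. For a background at equal depth, thinning to 1000 UMIs left PENK in 8.14% of oligodendrocyte-like nuclei of CN PD and 10.9% of indirect SPN-like nuclei, in 12.04% and 11.9% in CN CT, in 3.50% and 6.95% in PUT PD, and in 11.1% and 10.1% in PUT CT. At that equal depth the shares of the 2 CT libraries did not separate the neurons from glia. Thinning took a larger part of the UMIs from the deeper SPN-like nuclei, so these shares cannot decide whether they exceed glia. Per nucleus, PENK in indirect SPN-like nuclei was 3.94-fold the oligodendrocyte-like level in CN CT and 3.32-fold in PUT CT. The shares of nuclei with a UMI are not read as shares of expressing cells. Without thinning, 42.2% of indirect SPN-like nuclei held a PENK UMI in CN PD, 36.7% in CN CT, 23.6% in PUT PD and 35.6% in PUT CT. The median depth of these nuclei was 5533, 4174, 4392 and 4617 UMIs, against 1126.5, 843, 1207.5 and 1048 in oligodendrocyte-like nuclei.

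PDYN was seen at a like rate in direct SPN-like nuclei of CN with and without a TAC1 UMI, and pairing was not detectable at this depth. At 3000 UMIs a nucleus, PDYN was seen in 30 of 515 nuclei with a TAC1 UMI (5.83%, 3.96 to 8.21) and in 74 of 1327 without one (5.58%, 4.404 to 6.95) in CN PD. In CN CT it was seen in 37 of 653 (5.67%, 4.02 to 7.73) and 80 of 1304 (6.13%, 4.89 to 7.58). In indirect SPN-like nuclei PENK was seen in 21.5% of nuclei with a TAC1 UMI and 27.2% without one in CN PD, in 22.9% and 27.8% in CN CT, in 11.2% and 16.3% in PUT PD, and in 22.1% and 25.93% in PUT CT. The share was lower beside TAC1 in all 4 libraries with overlapping intervals in each, but at 1000 UMIs a nucleus it was higher beside TAC1 in CN PD, CN CT and PUT PD, so no direction is read. All 3 transcripts met in 0.0543% of direct SPN-like nuclei in CN PD and 0.307% in CN CT, and in none of 1113 nuclei in PUT PD and 1398 in PUT CT. Depth did not allow a reading of whether a nucleus without a UMI lacked the transcript.

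The striatum holds 2 intermingled compartments, striosomes (patches) and matrix, and SPN-like clusters were ordered by marker levels for both, with clusters higher for striosome markers called striosome-type. Among direct SPN-like nuclei of CN, PDYN was 33.0 CPM in striosome-type and 17.5 CPM in matrix-type clusters in PD, and 40.8 and 17.5 CPM in CT. The ratio was 1.89 (1.42 to 2.49) in CN PD, 2.33 (1.77 to 3.07) in CN CT, 3.03 (1.07 to 7.598) in PUT PD and 5.11 (1.84 to 13.9985) in PUT CT, the last 2 on 25 and 19 UMIs. TAC1 followed the same order in direct SPN-like nuclei, with ratios of 1.67 (1.48 to 1.88), 1.66 (1.48 to 1.86), 1.40 (1.15 to 1.69) and 1.42 (1.24 to 1.63). PENK in indirect SPN-like nuclei had ratios of 0.634 (0.534 to 0.749) in CN PD, 0.881 (0.741 to 1.04) in CN CT, 0.758 (0.567 to 0.998) in PUT PD and 0.760 (0.636 to 0.904) in PUT CT, with the PENK-poor MCHR2 cluster described next among the striosome-type ones. Without that cluster the ratios were 0.749 (0.628 to 0.888), 0.967 (0.806 to 1.15), 0.986 (0.729 to 1.31) and 0.892 (0.739 to 1.07), so the interval excluded 1 in CN PD alone. Across the 8 direct SPN-like clusters of at least 100 nuclei, PDYN went with the striosome marker level at a Pearson r of 0.75 and a Spearman rho of 0.93. With the matrix marker level, r was 0.15 and rho was -0.12. These are descriptions because clusters share libraries and depth and mix the regions. At a striosome marker level of 0.10, PDYN was 16.6 and 18.3 CPM in clusters mostly of CN but 3.24 CPM in a cluster mostly of PUT. The clusters are mostly of 1 library each, so compartment and library were not fully separable, but the ratios above were taken within libraries.

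A cluster of 253 nuclei led by MCHR2, KCNT2, ROR1 and DACH2 was indirect SPN-like by its markers, with DRD2 at 565.9 CPM, yet carried TAC1 at a level seen in direct SPN-like nuclei. It was singled out after its values were seen. TAC1 stood at 139.6 CPM (106 to 180) in CN PD, 185.6 (140 to 242) in CN CT, 160.6 (121 to 209) in PUT PD and 224.2 (182 to 273) in PUT CT, on 69, 61, 55 and 67 nuclei. These were 8.06-fold, 5.45-fold, 6.38-fold and 5.23-fold the level of the other indirect SPN-like nuclei of the same library. PENK in the cluster was 0.168-fold (0.072 to 0.332), 0.517-fold (0.305 to 0.820), 0.217-fold (0.070 to 0.511) and 0.328-fold (0.183 to 0.544) that of the others. The cluster held 24.4% of the TAC1 UMIs of the indirect class in CN PD, 14.3% in CN CT, 23.5% in PUT PD and 19.6% in PUT CT. Unlike most SPN-like clusters, it drew at most 27.3% of its nuclei from 1 library.

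**Figure D3:**
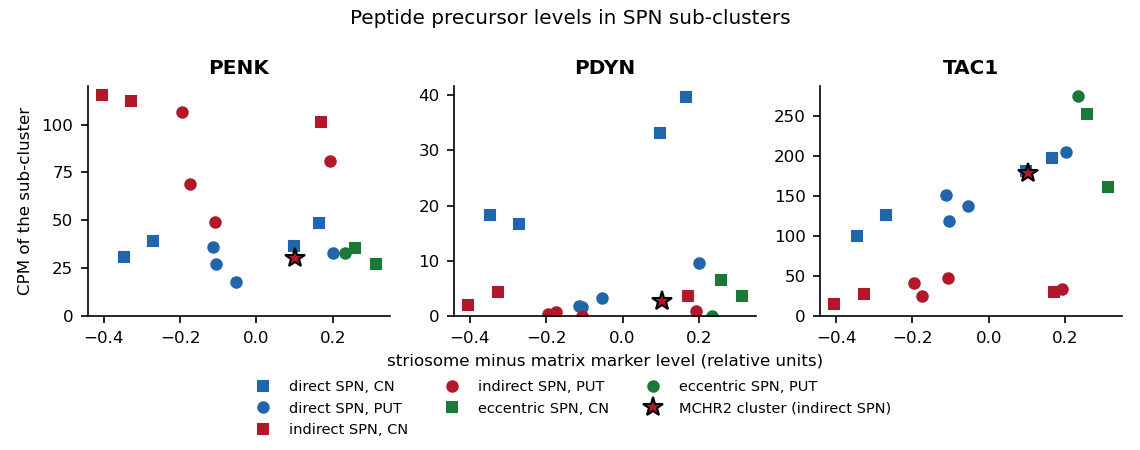
PENK, PDYN and TAC1 in CPM (y axes) for each SPN-like cluster of at least 100 nuclei against its striosome marker level minus its matrix marker level (x axis, relative units); squares are clusters mostly of CN and circles mostly of PUT. PDYN of direct SPN-like clusters does not follow the x axis across regions: it reaches 39.6 CPM in CN and 9.54 CPM in PUT, and in each region the striosome-type clusters to the right lie above the matrix-type ones. The MCHR2 cluster, drawn as a star, has TAC1 at 179.4 CPM with PENK at 30.4 CPM.

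PDYN was the precursor that most divided CN from PUT. In direct SPN-like nuclei its level was 5.13-fold higher (3.39 to 8.09) in CN than in PUT of the PD libraries and 9.28-fold higher (5.81 to 15.7) in the CT libraries. It lay at percentile 99.3 of all genes tested in PD and 99.9 in CT. Of all genes that reached 50 UMIs when both were added, 6.4% were past 1.5-fold higher in CN of PD and 7.68% in CT. PDYN in oligodendrocyte-like nuclei differed in the same direction, with 48 UMIs in 3316 nuclei of CN PD against 1 in 2724 of PUT PD, and 23 in 1853 of CN CT against 14 in 4039 of PUT CT. PENK in indirect SPN-like nuclei had a CN over PUT ratio of 1.72 (1.54 to 1.91) in PD and 1.16 (1.06 to 1.26) in CT. In that class 5.19% of genes were past 1.5-fold higher in CN of PD and 6.63% in CT. TAC1 in direct SPN-like nuclei had a CN over PUT ratio of 0.821 (0.753 to 0.897) in PD and 0.891 (0.827 to 0.959) in CT. Per nucleus the ratio was 1.05 in PD, the opposite direction, and 0.772 in CT.

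PD and CT were then compared within each region, a comparison of 1 library with another. In indirect SPN-like nuclei of PUT, PENK was 63.6 CPM in PD and 100.4 CPM in CT, a ratio of 0.634 (0.567 to 0.707). In CN it was 109.3 CPM in PD and 115.9 CPM in CT, a ratio of 0.943 (0.869 to 1.02). The PUT ratio was past 1.5-fold, as were 8.65% of genes lower in that class, and PENK lay at percentile 6.82 of all genes. The free RNA level moved with it: PENK in oligodendrocyte-like nuclei of PUT gave a PD over CT ratio of 0.290 (0.239 to 0.349), and in CN 0.586 (0.495 to 0.694). With the oligodendrocyte-like level per nucleus taken off, the log2 ratio in indirect SPN-like nuclei was -0.41 in PUT, no longer past 1.5-fold, and 0.094 in CN. The part of free RNA in the difference was not tested beyond this subtraction. Per nucleus, indirect SPN-like nuclei of CN held 0.650 PENK UMIs in PD and 0.510 in CT, a ratio of 1.27 and in the opposite direction from the ratio in CPM. The median depth of those nuclei was 5533 UMIs in PD and 4174 in CT.

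TAC1 in direct SPN-like nuclei was 112.7 CPM in PD and 145.7 CPM in CT of CN, a ratio of 0.774 (0.718 to 0.833), and 137.1 CPM in PD and 163.5 CPM in CT of PUT, a ratio of 0.839 (0.768 to 0.915). Neither was past 1.5-fold, and TAC1 lay at percentile 26.1 of all genes in CN and 26.6 in PUT. In that class 13.5% of genes in CN and 8.77% in PUT were past 1.5-fold lower. The per-nucleus ratio was 1.03 in CN and 0.757 in PUT. In CN the ratio was 0.768 (0.669 to 0.881) in striosome-type and 0.764 (0.699 to 0.835) in matrix-type direct SPN-like clusters. PENK of indirect SPN-like nuclei of CN had a ratio of 0.717 (0.573 to 0.898) in striosome-type and 0.997 (0.913 to 1.09) in matrix-type clusters, and in PUT 0.626 (0.456 to 0.851) and 0.628 (0.5575 to 0.707). Without the MCHR2 cluster the striosome-type ratios were 0.772 (0.610 to 0.976) in CN and 0.695 (0.497 to 0.958) in PUT. Differences between the cluster types were not tested.

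In eccentric SPN-like nuclei TAC1 was 152.0 CPM in PD and 279.7 CPM in CT of CN, a ratio of 0.544 (0.440 to 0.670) at percentile 4.34, where 11.9% of genes were past 1.5-fold lower. In PUT it was 199.8 CPM in PD and 297.1 CPM in CT, a ratio of 0.672 (0.513 to 0.876) at percentile 7.65. This was just short of 1.5-fold, and 7.05% of genes were past 1.5-fold lower. With the oligodendrocyte-like level taken off, the log2 ratios were -0.88 in CN and -0.54 in PUT, close to the -0.88 and -0.57 before. The free RNA level would amount to 9.61% of the TAC1 of this class in CN PD and 9.36% in CN CT. Per nucleus it was 0.797 in PD and 1.07 in CT of CN, a ratio of 0.743.

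PDYN in direct SPN-like nuclei was 20.7 CPM in PD and 22.0 CPM in CT of CN, a ratio of 0.944 (0.785 to 1.14). In PUT it was 4.04 CPM on 25 UMIs in PD and 2.37 CPM on 19 UMIs in CT, a ratio of 1.71 (0.904 to 3.28), so a difference was not detectable at this depth. PENK in direct and TAC1 in indirect SPN-like nuclei, the classes where each lay near the free RNA level, gave ratios of 0.700 and 0.571 in CN and 0.448 and 0.617 in PUT. Those of oligodendrocyte-like nuclei were 0.586 for PENK and 0.573 for TAC1 in CN, and 0.290 and 0.398 in PUT. With that level taken off, the log2 ratio of PENK in direct SPN-like nuclei was -0.078 in CN and -0.47 in PUT. The PUT value was -0.057 with the microglia-like level and 0.53 with the astrocyte-like level, so no direction is read. TAC1 in indirect SPN-like nuclei was -0.79 in CN and -0.30 in PUT with the oligodendrocyte-like level taken off. In PUT it was 14.3 CPM in PD and 15.4 in CT with the microglia-like level taken off. With the astrocyte-like level taken off it was 8.13 and 26.2 CPM. Over all processing alternatives its log2 ratio ran from -1.34 to -0.36 in CN and from -1.69 to -0.10 in PUT. All were negative, but their size depended on the alternative.

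**Figure D4:**
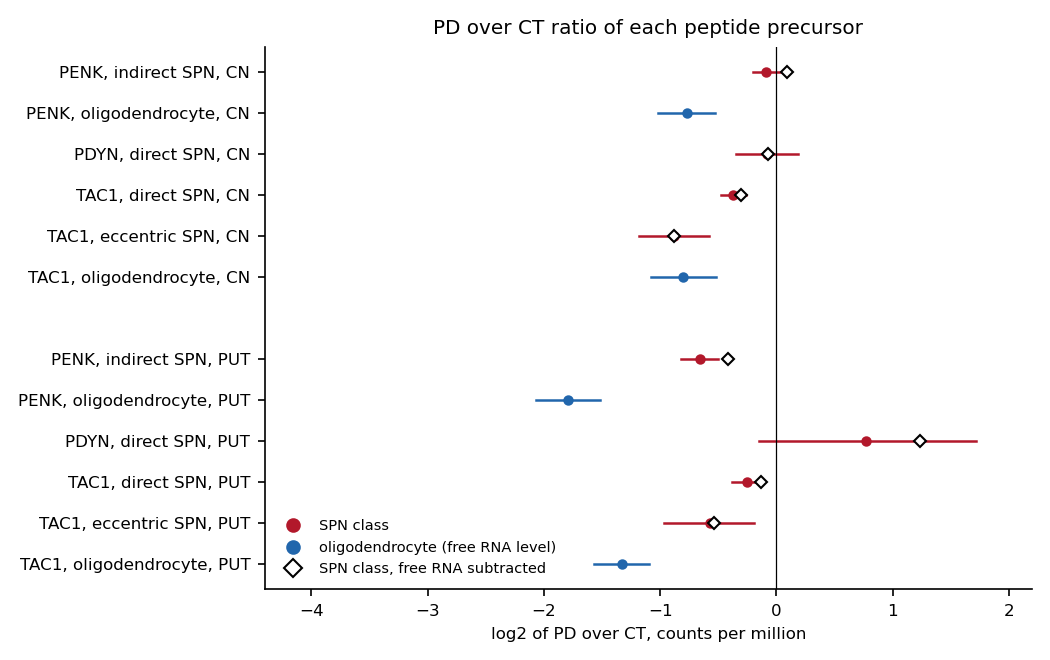
The log2 ratio of PD over CT in CPM (x axis) for each precursor in its SPN classes and, for PENK and TAC1, in oligodendrocyte-like nuclei of CN and PUT (rows); bars are exact conditional binomial 95% intervals and diamonds are SPN values with the oligodendrocyte-like level per nucleus taken off. In PUT the oligodendrocyte-like values lie below the SPN values drawn for the same gene, and in CN the TAC1 value of oligodendrocyte-like nuclei (-0.80) lies beside that of eccentric SPN-like nuclei (-0.88).

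The genes that handle these peptides were counted past 1.5-fold between PD and CT beside all genes. Over all genes, 3.25% were past 1.5-fold higher and 13.5% lower in direct SPN-like nuclei of CN, and 3.68% and 14% in indirect SPN-like nuclei of CN. In PUT the shares were 5.09% and 8.77% in direct and 5.16% and 8.65% in indirect SPN-like nuclei. Of 18 genes for precursor processing and secretory granules, 14 or 15 had enough UMIs, and per class and region at most 1 was past 1.5-fold higher and at most 1 lower. PCSK2, a convertase that cuts all 3 precursors, was 784.6 CPM in PD and 829.1 CPM in CT of direct SPN-like nuclei of CN, and 564.6 and 639.3 CPM in PUT. PCSK5, a related convertase, was lower in indirect SPN-like nuclei of both regions, at 19.7 CPM in PD and 36.1 in CT of CN (ratio 0.545, 0.458 to 0.647) and 20.3 and 39.9 in PUT (0.509, 0.420 to 0.615). Per nucleus these levels were 2.28-fold the oligodendrocyte-like level in CN PD, 6.68-fold in CN CT, 1.78-fold in PUT PD and 6.44-fold in PUT CT. In oligodendrocyte-like nuclei PCSK5 was higher in PD, at 42.2 CPM against 26.0 in CN and 39.5 against 26.8 in PUT. PCSK1, the convertase that makes the first cuts in many precursors, was singled out after its values were seen and stood in CN at 32.0 CPM in PD and 12.5 CPM in CT of indirect SPN-like nuclei (log2 ratio 1.36) and at 28.7 and 17.9 CPM in direct SPN-like nuclei. In PUT it was 9.63 CPM in PD and 7.36 in CT of indirect and 9.87 and 13.7 in direct SPN-like nuclei. PCSK1 in oligodendrocyte-like nuclei of CN was 10.7 CPM in PD and 5.32 in CT, on 43 and 9 UMIs, and its part in the difference was not tested. CADPS, which primes dense-core vesicles for release, was 393.0 CPM in PD and 387.9 in CT of indirect SPN-like nuclei of CN.

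The receptors for the released peptides were measured in the same nuclei. OPRM1, the mu opioid receptor and a striosome marker, was 304.0 CPM in PD and 260.4 in CT of indirect SPN-like nuclei of CN, and 146.3 and 142.8 in PUT. OPRD1, the delta receptor for enkephalin, was a transcript of indirect SPN-like nuclei, at 41.6 CPM in PD and 41.6 in CT of CN and 52.3 and 49.9 in PUT, against 3.24 to 6.31 CPM in direct SPN-like nuclei. OPRK1, the dynorphin receptor, was named after its values were seen. It was 21.9 CPM in PD and 24.2 in CT of direct SPN-like nuclei of CN, and 5.98 and 11.2 in PUT (ratio 0.534, 0.354 to 0.791, on 37 and 90 UMIs). In indirect SPN-like nuclei OPRK1 was 25.6 CPM in PD and 21.5 in CT of CN, and 10.7 and 13.9 in PUT. Of the 3 tachykinin receptors only TACR1, the substance P receptor, had enough UMIs. It was 45.9 CPM in PD and 26.1 in CT of indirect SPN-like nuclei of PUT (ratio 1.76, 1.49 to 2.08), and 11.1 and 8.04 in CN (1.38, 1.03 to 1.86). Of 5 opioid receptor genes, 1 was past 1.5-fold higher and 2 lower in direct SPN-like nuclei of PUT, 1 was lower in each class of CN, and none in indirect SPN-like nuclei of PUT. No gene of the list was past 1.5-fold in the same direction in both regions of a class.

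Of 12 peptidase genes that can end peptide action, 8 or 9 had enough UMIs. Past 1.5-fold, 1 was lower in each class of CN and 2 were higher in indirect SPN-like nuclei of PUT. MME (neprilysin), which cuts enkephalins and substance P, was 99.9 CPM in PD and 152.9 in CT of direct SPN-like nuclei of CN (ratio 0.653, 0.605 to 0.705) but 355.5 and 383.7 in PUT. NLN, a peptidase that cuts several small neuropeptides, was 127.9 and 117.6 CPM in CN and 97.8 and 100.9 in PUT. Of 17 genes of dopamine and cAMP signalling in SPNs, 14 or 15 had enough UMIs and none was past 1.5-fold in either direction in any of the 4 comparisons. PDE10A, the phosphodiesterase that marks SPNs, was 4930 CPM in PD and 4431 in CT of indirect SPN-like nuclei of CN, and 7995 and 7303 in PUT. GNAL, the G protein subunit that couples receptors to cAMP in SPNs, was 999.8 CPM in PD and 879.2 in CT of indirect SPN-like nuclei of CN, and 1091 and 940.3 in PUT.

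Among other neuropeptide precursors, NPY and SST were past 1.5-fold lower in PD in both SPN classes of both regions, among 3 of 15 list members with enough UMIs. NPY of indirect SPN-like nuclei was 6.46 CPM in PD and 14.8 in CT of CN (ratio 0.438, 0.325 to 0.585), and 11.3 and 25.2 in PUT (0.450, 0.348 to 0.578). Per nucleus these levels were 1.24-fold the oligodendrocyte-like level in CN PD, 1.09-fold in CN CT, 1.22-fold in PUT PD and 1.29-fold in PUT CT. NPY and SST are made by a rare interneuron type, in which NPY stood at 1500 CPM in CN PD, 1948 in CN CT, 1226 in PUT PD and 1639 in PUT CT. SST in SPN-like nuclei was 0.528-fold to 1.74-fold the oligodendrocyte-like level per nucleus. The values of both in SPN-like nuclei are read as background.

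In the nigra, where no cell body of an SPN is known to lie, the 3 genes gave few UMIs in neurons. In SN PD, 2 nuclei were named indirect SPN-like, with 2 PENK, 0 PDYN and 2 TAC1 UMIs. Dopaminergic neuron-like nuclei held 3 PENK, 0 PDYN and 0 TAC1 UMIs over 278 nuclei in PD, and 2, 1 and 1 over 357 nuclei in CT. GABAergic neuron-like nuclei held 2 PDYN and 2 TAC1 UMIs over 195 nuclei in PD, and 2 and 1 over 217 nuclei in CT. Other neuron-like nuclei held 6 TAC1 UMIs (5.73 CPM, 2.10 to 12.5) in PD and 9 (17.1 CPM, 7.81 to 32.4) in CT. Over all barcodes, however, SN PD held 126 PENK, 22 PDYN and 43 TAC1 UMIs, and SN CT 3, 5 and 14.

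Most of the PENK of SN PD sat in 20 nuclei, chosen after values were seen, that held at least 3 UMIs of PDE10A and 1 of PPP1R1B, both SPN markers. They carried 82 PENK, 13 PDYN and 16 TAC1 UMIs, against 41, 9 and 24 in the other 8276 nuclei of the library. In SN CT 3 nuclei met the rule, all dopaminergic or GABAergic neuron-like, with 0 UMIs of each gene. The 20 nuclei had a median of 7510 UMIs and of 8 of the 10 SPN markers, and none of their barcodes occurred in another library. The 11 that held a DRD2 or ADORA2A UMI all held PENK, 73 UMIs in all (1013 CPM, 794 to 1274), and no PDYN or TAC1. The 9 without held 13 PDYN UMIs in 6 nuclei (162 CPM, 86.1 to 276), 16 TAC1 UMIs in 7 (199 CPM, 114 to 323) and 9 PENK UMIs (112 CPM).

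PENK in the nuclei with DRD2 or ADORA2A exceeded that of striatal nuclei chosen by the same rule. With a DRD2 or ADORA2A UMI, PENK was 97.3 CPM in CN PD, 96.0 in CN CT, 60.1 in PUT PD and 85.1 in PUT CT, and the highest single nucleus held 5 to 7 UMIs, against 23 in SN PD. Without such a UMI, TAC1 was 107.1 CPM in CN PD, 132.5 in CN CT, 121.7 in PUT PD and 153.4 in PUT CT. All but the CN PD value lie within the interval of the 9 nigral nuclei. PDYN in these striatal nuclei was 17.8 CPM in CN PD, 19.3 in CN CT, 4.10 in PUT PD and 2.48 in PUT CT. Each lies below the interval of the 9 nigral nuclei (86.1 to 276). Their PENK was 33.9, 53.0, 19.5 and 39.8 CPM in the same order. All but the CN CT value lie below the nigral interval (51.2 to 212). Of the 20 nuclei, 1 was named indirect SPN-like and 1 was given no single class. The other 18 fell in an unnamed cluster led by mitochondrially encoded genes, with ALB and APOA2 also among its leading genes. The 20 nuclei had a median mitochondrial share of 0.633%, against 0 to 0.0137% in the SPN-like classes of the striatal libraries. In the striatal libraries the same cluster held PENK at 214.9 CPM in CN PD, 208.2 in CN CT, 211.8 in PUT PD and 125.7 in PUT CT, on 11 or 12 UMIs each. The source of these nuclei was not tested.

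**Figure D5:**
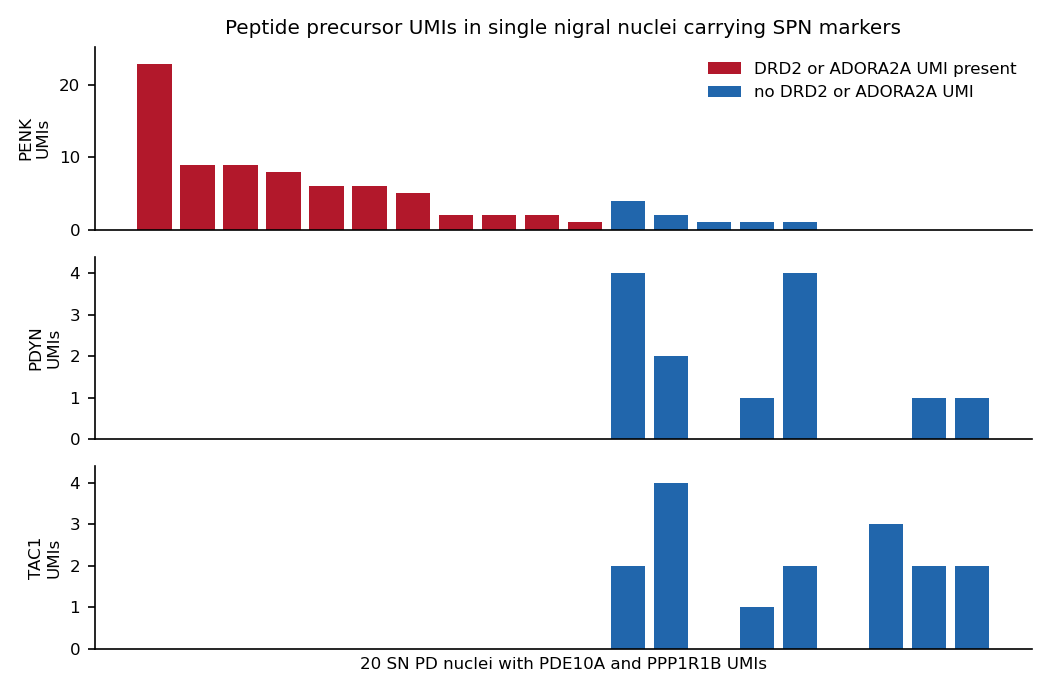
UMIs of PENK, PDYN and TAC1 (y axes) in each of the 20 SN PD nuclei with PDE10A and PPP1R1B UMIs (x axis, the same nucleus in each panel); red bars are the 11 nuclei with a DRD2 or ADORA2A UMI and blue bars the 9 without. PENK reaches 23 UMIs in the red nuclei, and all 13 PDYN and 16 TAC1 UMIs lie in the blue nuclei.

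Over 52 sums of a class in a library, each of at least 50 nuclei, the genes with the pattern most like each member were ranked by Pearson correlation of log2(CPM + 1) among 10695 genes. The sums share libraries, depth and free RNA, so these values are descriptions. Most like PENK were PCP4 (0.90), CST6 (0.89), NPY (0.87), HPCA (0.87) and ARPP19 (0.87). Most like TAC1 were HPCA (0.92), PCP4 (0.91), NRGN (0.88), CRYM (0.86) and CST6 (0.85), and TAC1 and PENK themselves stood at 0.88. PDYN had weaker partners, PHF20L1 (0.60), NNAT (0.60), DRD3 (0.60), GDA (0.57) and AP3S1 (0.57). GDA, guanine deaminase, divided CN from PUT as PDYN did, with 74.4 CPM in CN PD, 72.5 in CN CT, 4.85 in PUT PD and 7.35 in PUT CT in direct SPN-like nuclei. DRD3, the D3 dopamine receptor, had 99.8, 118.9, 38.7 and 52.3 CPM in the same nuclei. GDA and CRYM were also among the matrix markers that ordered the SPN-like clusters. The matrix marker level thus holds a gene, GDA, that differed between the regions.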

How the data were processed

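The deposited files hold whole-number UMI counts per gene and barcode, in 6 matrices. The authors made them in Cell Ranger 7.0.1, per the submitters' processing notes. The counts were used as deposited. A barcode was kept if it had 500 genes or more, no more than 5% of UMIs from mitochondrial genes, and a doublet score (Scrublet) no higher than 0.25. This left 52693 of 56659. They were scaled to 10000 UMIs, clustered with scanpy 1.11.5 (2000 variable genes, 30 components, 15 neighbours, Leiden resolution 1, then 0.5 within clusters) with no batch correction, and named from 160 marker genes in 23 lists. PENK, PDYN and TAC1 were left out of the variable genes and markers. UMIs were summed per class and library. CPM is a gene's UMIs scaled by all UMIs of the class. Intervals are exact (Poisson, Clopper-Pearson or conditional binomial) at 95% and cover counting error only. With 1 library per group no test was made. A 1.5-fold difference and at least 50 UMIs over both libraries set which genes count as past the fold. Free RNA is the UMIs per nucleus in oligodendrocyte-like nuclei of the same library. The 3 genes, the lists and the markers were chosen with earlier results of these data known. Named genes are the 5 most correlated with each member, the 2 highest of each pathway list and those past 1.5-fold alike in both regions. PCSK1 and OPRK1 were named after their values were seen. The calculations were tested on simulated data. The group of a matrix is known from its name. Counts from 3′ tags carry no length correction, so a UMI count or share set beside that of another gene is not a difference in abundance.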

Additional observations from a re-analysis of the deposited data

Results flagged for a closer look

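In SN PD, 20 nuclei with PDE10A and PPP1R1B UMIs held 82 PENK, 13 PDYN and 16 TAC1 UMIs. They stand out because the nigra is outside the striatal comparisons. The rule was chosen after values were seen. The 3 nuclei of SN CT that met it held 0 of each gene, but were dopaminergic or GABAergic neuron-like, so the sets differ in class. The upper limit for their 0 UMIs was 80.7 CPM, below the SN PD interval for PENK (427.8 to 667.6). That limit lay inside the SN PD intervals for PDYN and TAC1. Because the sets differ in class, no PD and CT difference is read for any of the 3 genes. Oligodendrocyte-like nuclei of SN PD held 17 PENK and 7 TAC1 UMIs over 5707 nuclei, against 0 and 1 over 6635 nuclei of SN CT.

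PDYN in direct SPN-like nuclei had a log2 ratio of PD over CT of 0.76 in PUT and -0.083 in CN, in opposite directions. Both intervals include no difference, the PUT value rests on 25 and 19 UMIs, and the difference between the regions was not tested.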

How the results depend on the processing

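No paired analysis was possible because each region and group came as 1 library with no map to samples, and for the same reason no replicate could be left out. Of the alternatives for the main values, 77 stayed within the counting interval, 28 moved and none reversed a called value. The log2 ratio of PD over CT for PENK in indirect SPN-like nuclei of CN was 0.065 with median-ratio scaling, 0.094 with the oligodendrocyte-like, 0.091 with the microglia-like and 0.084 with the astrocyte-like level taken off. In PUT it was -0.41 with the oligodendrocyte-like level taken off, -0.38 with the microglia-like and -0.33 with the astrocyte-like level. The last also reversed PENK in direct SPN-like nuclei of PUT, to 0.53. TAC1 in direct SPN-like nuclei of PUT was -0.13 and -0.10 with the oligodendrocyte-like and microglia-like levels taken off. In CN it was -0.23 with median-ratio scaling, -0.26 when thinned to 3000 UMIs and -0.58 when nuclei were split by EBF1 and DRD2 or ADORA2A UMIs, a split chosen after seeing the data that gave -0.37 for PDYN. Taking off the microglia-like or astrocyte-like level, and leaving out the striosome-type clusters or the MCHR2 cluster, were also chosen after seeing the data. Without the MCHR2 cluster, the striosome-type over matrix-type ratio of TAC1 in indirect SPN-like nuclei of PUT PD reversed to 0.796 (0.453 to 1.31), against 2.41 with it. The split by DRD1 left under 50 direct SPN-like nuclei and gave no value there. The lowest PENK fold over glia, 3.32, was 2.35 with at least 1000 genes, 2.86 over astrocyte-like and 2.82 over microglia-like nuclei. That of TAC1, 5.32, was 4.29, 5.88 and 4.69. The share of nuclei with PDYN beside TAC1 over that without, 0.924 in CN CT, was 1.39 at 1000 UMIs and 1.42 with no thinning. For PENK beside TAC1 in indirect SPN-like nuclei it was 1.46 in PUT PD, 1.32 in CN PD and 1.55 in CN CT at 1000 UMIs. Without a filter on low counts, the share of genes past 1.5-fold between PD and CT was 32.2% in direct and 31.3% in indirect SPN-like nuclei of PUT, and 33.8% and 34.7% in CN. The causes were not tested.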
